A study of Bos taurus with 4 samples.

Results

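The genes described here encode the enzymes that carry glucose carbon through glycolysis, the pyruvate dehydrogenase complex, the tricarboxylic acid (TCA) cycle and the pentose phosphate pathway. They were taken from a list of 43 gene symbols and matched to probe sets that the platform's annotation table assigns to a single gene. Of the 43, 39 had a probe set (63 probe sets in all) among 9155 genes tested, while the table in use assigned none to HK2, PDK1, IDH3B and MDH1, which were not analysed here. The 39 comprised 17 glycolytic genes, 6 genes of pyruvate dehydrogenase and its kinases, 12 genes of the TCA cycle and the reactions that refill or drain it, and 4 pentose phosphate genes.

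Transcripts were measured on Affymetrix bovine arrays in gamma delta T cells, lymphocytes with innate-like functions that are abundant in the blood of young ruminants. The cells came from peripheral blood of 2 calves, 301 and 303, whose breed is not given in the sources used here, and were sorted to a purity above 97%. After a night of rest, cells of each calf were given an aqueous apple polyphenol extract (APP, 42.2 µg/ml) or phosphate-buffered saline (PBS) for 4 h, which gave 2 arrays per treatment. The labels' protocols put the calves at 1 to 6 months of age, whereas the series' design text calls them neonatal. The study asked which transcripts of these cells respond to APP.

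Glycolysis splits glucose into pyruvate in the cytosol, with phosphofructokinase as its main point of control and pyruvate kinase at its end. Pyruvate is reduced to lactate by lactate dehydrogenase or enters mitochondria, where the pyruvate dehydrogenase complex turns it into acetyl-CoA for the TCA cycle. The pentose phosphate pathway branches off to supply NADPH and ribose. Activated T cells are known for raising glucose uptake and lactate output.

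Values are log2 ratios of a probe set's signal to its own median over the 4 arrays, averaged over the probe sets of a gene. Differences between arrays can be read on this scale, while the level of a gene is lost, so no gene's abundance is compared with another's. In bulk RNA of this kind, fewer cells of a type and less RNA per cell cannot be told apart. A gene is said to have risen or fallen where limma, fitted with a block for the calf, gave an adjusted p under 0.05 over all genes. Every change is APP minus PBS, and means carry the SD over the 2 calves (n = 2).

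Across the series, 2104 of 9155 genes rose (23.0%) and 2717 fell (29.7%), so that 52.7% passed the test. The direction of modest changes depended on how the arrays were scaled. The hybridization controls bioB, bioC and bioD, added in a fixed amount in the standard Affymetrix protocol, read 0.85 higher on the log2 scale in APP arrays (calf 301 0.78, calf 303 0.93). Scaling to them, called the control scale below, shifts every change by -0.85, leaving 298 rises and 8224 falls, or 3.5% rises among calls in place of 43.6%. Rises of less than that size therefore change sign on that scale, while falls grow larger. Calls on the control scale treat its offset, read from 7 control probe sets, as free of error, so their p-values overstate the certainty. Levels of cell type markers cannot be read from ratios, so the labelled cell type was not checked by level. Of 7 measured genes on the gamma delta T cell marker list, 4 fell and 1 rose (median change -0.47). The falls were those of CD3G (-0.47), CD247 (-0.53), WC1.3 (-0.86) and CD163L1 (-1.08). IL2RG rose by 0.30, and CD3D and CD3E did not pass. The receptor genes TRDC, TRGC1, TRGC2 and TRGC5 of that list were not among those measured. Of 11 monocyte and dendritic cell markers 3 rose (CD68 by 2.31, CD14 and FCGR1A by 0.46 each, the last pair negative on the control scale) and none fell. Of 4 B cell markers 3 fell (MS4A1 by 0.56, CD79A by 0.80 and JCHAIN by 1.33). Among 6 alpha beta T cell markers 2 rose (CD8A by 1.08 and CD5 by 0.62) and 1 fell (CD8B by 0.64). CD8A and CD8B overlapped between the treatments and differed between the calves. Calf 303 minus 301 was 1.59 for CD8A and 2.30 for CD8B (adjusted p = 0.00673 and 0.000499, limma). Among 5 NK cell markers 2 rose, among 3 platelet markers 1 rose, and none of 6 erythroid markers passed. On the control scale CD68 alone of the marker rises still passed (1.45). CD8A stood at 0.23 there and did not pass, and the other marker rises turned negative. The part of these markers in the results below was not tested.

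Of the 39 enzyme genes, 15 rose (38.5%), 10 fell (25.6%) and 14 did not pass, beside 23.0% and 29.7% of all genes. Their median change was 0.13, against 0.01 for all genes. On the control scale these medians were -0.72 and -0.84. Changes ran from -1.14 (IDH1) to 1.54 (PFKP). They had the same direction in both calves for 36 of the 39, beside 7751 of all 9155 genes. The arrays of the treatments did not overlap for 32 of the 39, beside 6755 of all 9155 genes. limma's standard error lay between 0.095 and 0.123 for the genes that rose and between 0.095 and 0.117 for those that fell. On the control scale 11 of the 15 rises turned negative, and PFKP, PKM and IDH3A stayed positive, as did PGAM1, whose change of 0.06 no longer passed (adjusted p = 0.7, limma). No enzyme gene differed between the calves themselves in limma's test (7 at an unadjusted p under 0.05), where 1.70% of all genes did. At that share a list of 39 genes need not hold any. The share of all genes at the unadjusted threshold was not counted.

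**Figure D1:**
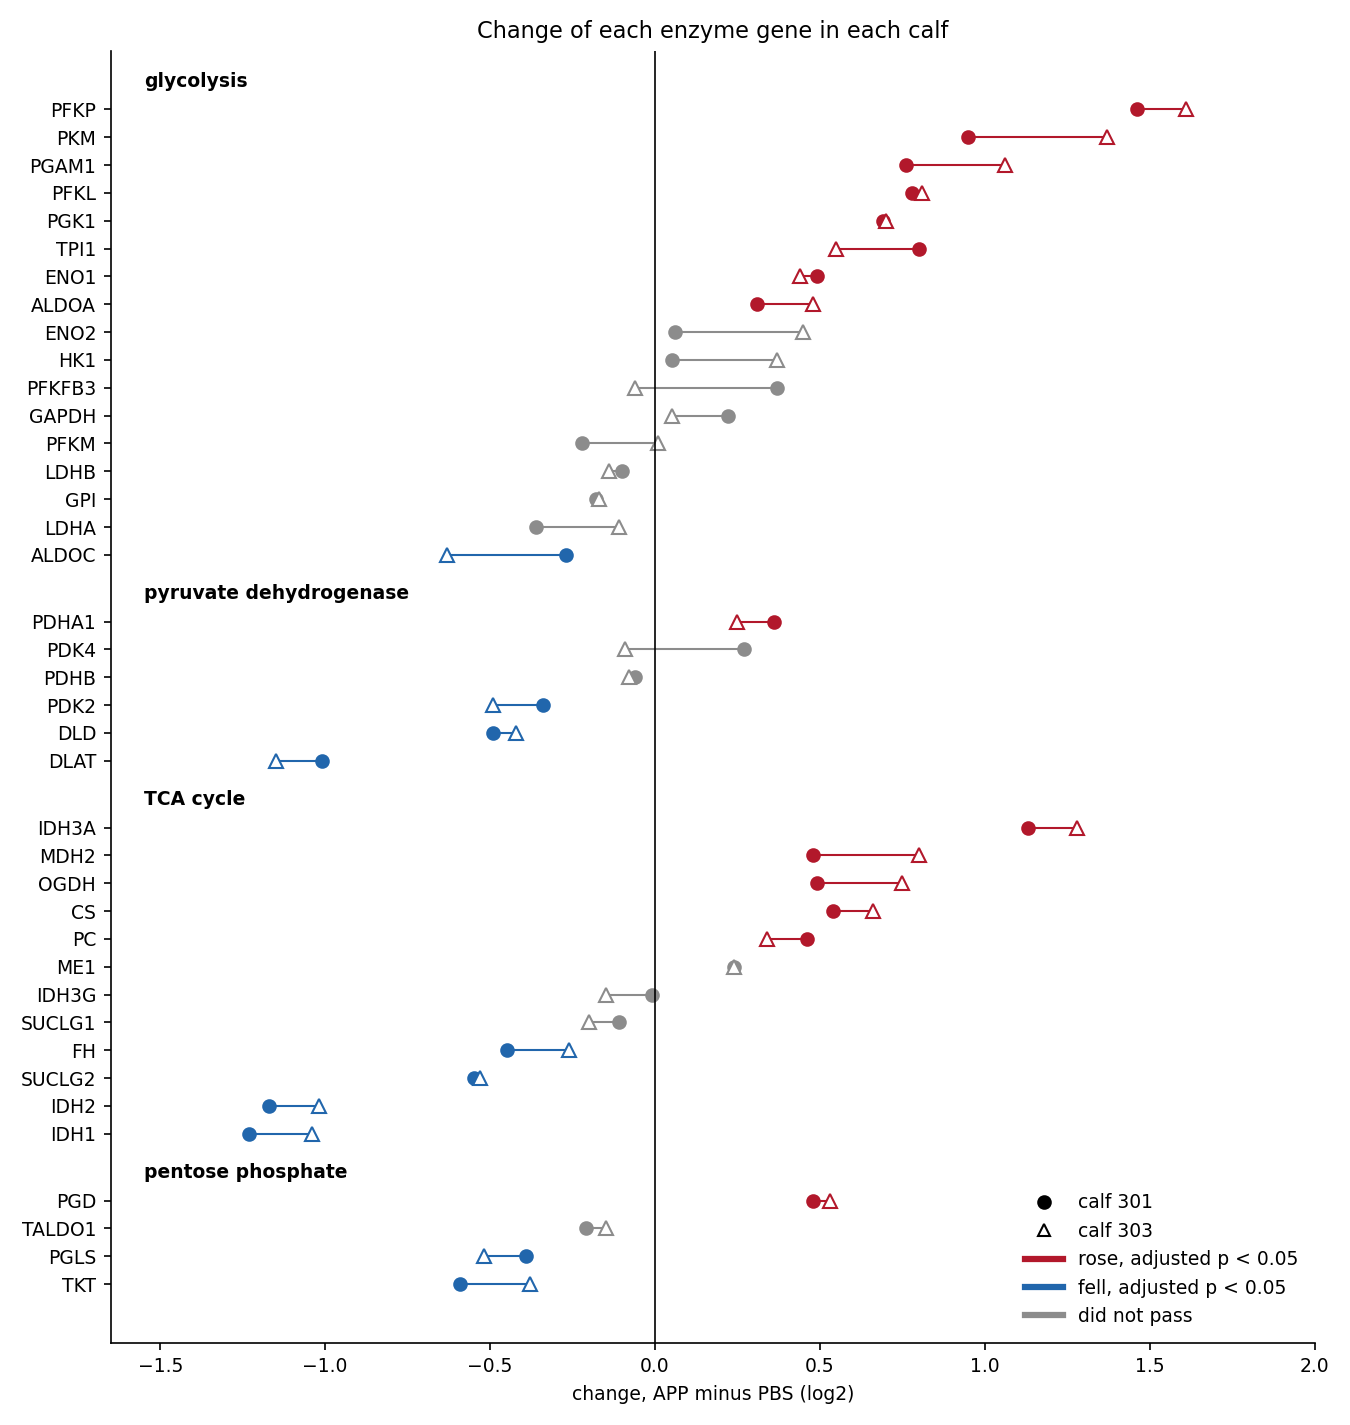
Change of each of the 39 enzyme genes (log2, APP minus PBS) in calf 301 (filled circles) and calf 303 (open triangles), grouped by pathway and ordered by the mean. Red genes rose and blue genes fell (limma, adjusted p under 0.05, deposited scaling), and grey genes did not pass. PFKP lies farthest right and IDH1 farthest left. Scaled to the hybridization controls every point moves by about -0.85, so that 11 of the 15 red genes would have a negative mean.

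Glycolytic genes rose more often than they fell, which turned on the control scale to 2 rises and 11 falls. On that scale 298 of all 9155 genes rose and 8224 fell. With the deposited scaling, used for the counts that follow, 23.0% of all genes rose and 29.7% fell. The 17 measured genes included 8 that rose (47.1%), 1 that fell (5.88%) and 8 that did not pass. Their median change was 0.25, and -0.60 on the control scale. The rises were those of PFKP and PFKL, of phosphofructokinase, and of ALDOA, TPI1, PGK1, PGAM1, ENO1 and PKM, from aldolase to pyruvate kinase. On those steps GAPDH and the isoform genes PFKM and ENO2 did not pass, and the aldolase gene ALDOC fell. The rises also did not include HK1 and GPI, of the first steps, PFKFB3, or the lactate dehydrogenase genes LDHA and LDHB. The hexokinase genes HKDC1 and HK3, from the list of neighbouring genes below, did rise. The medians within the calves were 0.31 in calf 301 and 0.44 in calf 303.

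The largest rise was that of PFKP, the platelet-type isoform of phosphofructokinase, which commits sugar to glycolysis. Its log2 ratios were -0.97 (calf 301) and -0.83 (calf 303) in PBS, and 0.50 and 0.78 in APP. The treatments did not overlap, and the gap was 1.46 in calf 301 and 1.61 in calf 303, a 2.90-fold rise (1.54 ± 0.11, SD, n = 2, adjusted p = 4.36e-05, limma). The liver-type isoform PFKL stood at -0.32 and -0.56 in PBS and at 0.46 and 0.25 in APP, also without overlap. It rose 1.73-fold (0.79 ± 0.02), with a mean of -0.06 on the control scale. The muscle-type isoform PFKM showed changes of -0.22 (calf 301) and 0.01 (calf 303) and an adjusted p of 0.417 in limma's test, with its 3 probe sets at -0.50, -0.23 and 0.41. The differences between the isoforms were not tested. PFKFB3, which makes and removes the main activator of phosphofructokinase, showed changes of 0.37 and -0.06 and an adjusted p of 0.329 in limma's test, with 0.47 for a probe set that rose and -0.27 and 0.27 for 2 that did not pass.

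PKM, the pyruvate kinase of most tissues outside liver and red cells, had log2 ratios of -0.57 (calf 301) and -0.79 (calf 303) in PBS and 0.38 and 0.58 in APP. Every APP array lay above every PBS array, with a 2.23-fold rise (1.16 ± 0.29, SD, n = 2, adjusted p = 0.00029, limma). PKM produces the splice forms M1 and M2, and its single probe set does not tell them apart here. PGAM1, a phosphoglycerate mutase, read -0.45 and -0.65 in PBS and 0.31 and 0.41 in APP. It rose 1.88-fold (0.91 ± 0.21), larger in calf 303 (1.06) than in calf 301 (0.76), and its mean was 0.06 on the control scale, where it did not pass.

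PGK1, which makes the first ATP of the lower pathway, changed almost alike in the calves. It read -0.35 (calf 301) and -0.44 (calf 303) in PBS and 0.34 and 0.27 in APP, changes of 0.69 and 0.70 (1.62-fold). The triose phosphate isomerase gene TPI1 read -0.55 and -0.31 in PBS and 0.25 and 0.24 in APP, a 1.60-fold rise (0.67 ± 0.18, SD, n = 2). The treatments overlapped for neither gene, and the means were -0.16 (PGK1) and -0.18 (TPI1) on the control scale. Smaller rises were those of the enolase gene ENO1 (0.49 in calf 301 and 0.44 in calf 303) and the aldolase gene ALDOA (0.31 and 0.48), which stood at -0.39 and -0.46 on the control scale. ALDOC, the brain-type aldolase, was the glycolytic gene that fell, by 0.27 in calf 301 and by 0.63 in calf 303.

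GAPDH, often used as a reference gene, showed changes of 0.22 (calf 301) and 0.05 (calf 303), with an adjusted p of 0.305 in limma's test. The array's separate GAPDH control probe sets changed by 0.15, 0.25 and 0.26 in calf 301 and by -0.01, 0.14 and -0.01 in calf 303, for the 3′, middle and 5′ parts of the transcript. Of the remaining genes that did not pass, mean changes were 0.25 for the neuronal enolase ENO2, 0.21 for the hexokinase HK1, -0.12 for the heart-type lactate dehydrogenase LDHB and -0.18 for the glucose phosphate isomerase GPI. LDHA, the lactate dehydrogenase form that predominates in glycolytic cells, gave no single answer. Its probe sets changed by 0.70 (rose, 0.66 and 0.75 in the calves), by -1.02 (fell, -1.19 and -0.85) and by -0.38 (did not pass), so that the gene mean of -0.23 (adjusted p = 0.106, limma) describes none of them.

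In fits without the calf term that each left out 1 array, the calls of PFKP, PFKL, PGK1, PGAM1 and PKM held in all 4. That of TPI1 was lost without PBS 301 (change 0.55 to 0.80 over the 4 fits), that of ENO1 without either PBS array (0.43 to 0.50) and that of ALDOA without any of the 4 (0.24 to 0.55). ALDOC did not pass without PBS 301, PBS 303 or APP 303 (-0.65 to -0.25). With all 4 arrays and no calf term, 7 of the 8 rises passed and the fall of ALDOC did not.

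**Figure D2:**
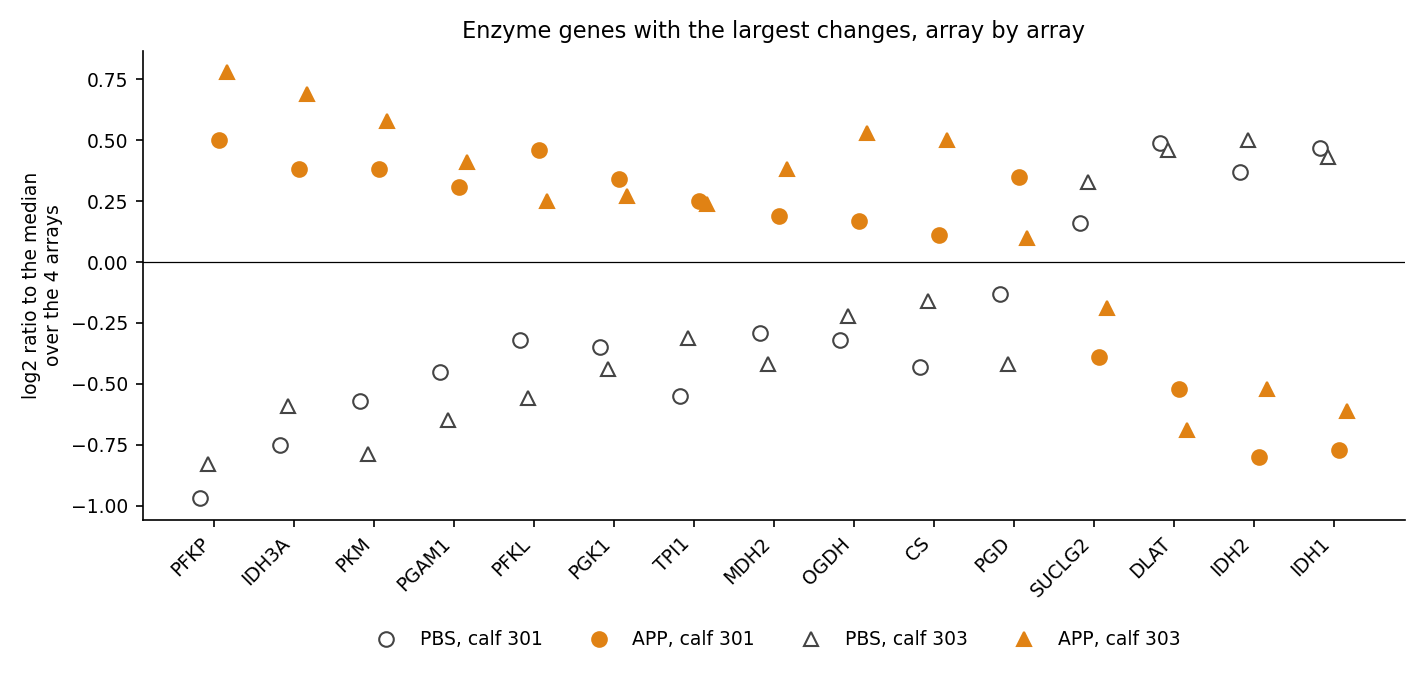
Log2 ratio to the median over the 4 arrays for the 15 enzyme genes that passed limma's test with a mean change of at least 0.5, with PBS arrays as open and APP arrays as filled symbols, circles for calf 301 and triangles for calf 303. In 11 genes both APP arrays lie above both PBS arrays, and in SUCLG2, DLAT, IDH2 and IDH1 below. Such separation held for 6755 of all 9155 genes, and these 15 were chosen for passing the test. Scaled to the hybridization controls, 7 of the 11 rises (PFKL, PGK1, TPI1, MDH2, OGDH, CS and PGD) would have a negative mean change.

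Genes of pyruvate dehydrogenase and its kinases fell more often than they rose, as did all genes (29.7% fell and 23.0% rose). The 6 measured genes included 3 that fell (50%), 1 that rose (16.7%) and 2 that did not pass. Their median change was -0.24, and -1.10 on the control scale. DLAT, the transacetylase that forms the core of the complex, read 0.49 (calf 301) and 0.46 (calf 303) in PBS and -0.52 and -0.69 in APP. The treatments were well apart, and DLAT fell 2.11-fold (-1.08 ± 0.10, SD, n = 2, adjusted p = 0.000153, limma), with all 3 of its probe sets called as falls between -1.38 and -0.70. DLD, the dihydrolipoamide dehydrogenase that the complex shares with the ketoglutarate dehydrogenase, changed by -0.49 in calf 301 and -0.42 in calf 303. PDK2, a kinase that switches the complex off, changed by -0.34 and -0.49.

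PDHA1, the alpha subunit of the first, decarboxylating enzyme, rose by 0.36 (calf 301) and 0.25 (calf 303), with a mean of -0.54 on the control scale. Of its 4 probe sets 1 rose (0.59) and the others did not pass (0.04 to 0.31), and the gene did not pass when the median of its probe sets was used. PDHB, its beta subunit, changed by -0.06 and -0.08 and the starvation-induced kinase PDK4 by 0.27 and -0.09, and neither passed. Without the calf term the call of PDHA1 was lost as well. The call of DLAT held without each array in turn. That of DLD was lost without PBS 301, APP 301 or PBS 303 (-0.49 to -0.41), and those of PDK2 (-0.52 to -0.31) and PDHA1 (0.20 to 0.42) without any of the 4.

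TCA cycle genes moved in both directions, with 1 rise and 8 falls on the control scale. There 298 of all 9155 genes rose and 8224 fell. With the deposited scaling, used for the counts that follow, 23.0% of all genes rose and 29.7% fell. The 12 measured genes included 5 that rose (41.7%), 4 that fell (33.3%) and 3 that did not pass. Their median change was 0.08, and -0.77 on the control scale. The isocitrate dehydrogenase genes moved both ways. The NADP-dependent enzymes IDH1 (cytosolic) and IDH2 (mitochondrial) fell, whereas IDH3A, the catalytic subunit of the NAD-dependent enzyme of the cycle, rose.

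IDH1 read 0.47 (calf 301) and 0.43 (calf 303) in PBS and -0.77 and -0.61 in APP, a 2.20-fold fall without overlap (-1.14 ± 0.14, SD, n = 2, adjusted p = 0.000137, limma). Its 3 probe sets all changed downward and differed in size, at -2.09, -1.01 and -0.32, the last of which did not pass. IDH2, also a source of NADPH, read 0.37 and 0.50 in PBS and -0.80 and -0.52 in APP, a 2.14-fold fall (-1.10 ± 0.11) seen as -1.17 in calf 301 and -1.02 in calf 303. IDH3A read -0.75 and -0.59 in PBS and 0.38 and 0.69 in APP. It rose 2.31-fold (1.21 ± 0.11, adjusted p = 9.93e-05, limma), by 1.02 and 1.39 for its probe sets, and stayed at 0.35 on the control scale. The regulatory subunit gene IDH3G changed by -0.01 and -0.15 in the calves and did not pass. The differences between the isocitrate dehydrogenase genes were not tested.

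Other rises lay at the entry and the end of the cycle and at its ketoglutarate step. MDH2, the mitochondrial malate dehydrogenase, read -0.29 (calf 301) and -0.42 (calf 303) in PBS and 0.19 and 0.38 in APP (1.56-fold, 0.64 ± 0.23, SD, n = 2). OGDH, the decarboxylating subunit of the ketoglutarate dehydrogenase, read -0.32 and -0.22 in PBS and 0.17 and 0.53 in APP (1.54-fold, 0.62 ± 0.18). CS, the citrate synthase, read -0.43 and -0.16 in PBS and 0.11 and 0.50 in APP (1.52-fold, 0.60 ± 0.08). In none of the 3 did the treatments overlap, and their means were -0.21, -0.23 and -0.25 on the control scale. PC, the pyruvate carboxylase that refills the cycle, rose by 0.46 (calf 301) and 0.34 (calf 303), with a mean of -0.45 on the control scale and with 1 of its 3 probe sets called.

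The falls other than IDH1 and IDH2 were SUCLG2 and FH. SUCLG2, the GTP-forming subunit of succinyl-CoA ligase, read 0.16 (calf 301) and 0.33 (calf 303) in PBS and -0.39 and -0.19 in APP, changes of -0.55 and -0.53 (1.45-fold). The fumarase gene FH changed by -0.45 and -0.26. The shared alpha subunit gene SUCLG1 (-0.11 and -0.20) and the cytosolic malic enzyme ME1 (0.24 in each calf) did not pass. The calls of IDH1, IDH2 and IDH3A held without each array in turn. That of MDH2 was lost without PBS 303 (0.55 to 0.74), those of CS (0.40 to 0.79) and OGDH (0.44 to 0.80) without PBS 301, PBS 303 or APP 303, and those of SUCLG2 (-0.63 to -0.44), FH (-0.49 to -0.23) and PC (0.26 to 0.54) without PBS 301, APP 301 or PBS 303. FH and PC did not pass without the calf term.

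**Figure D3:**
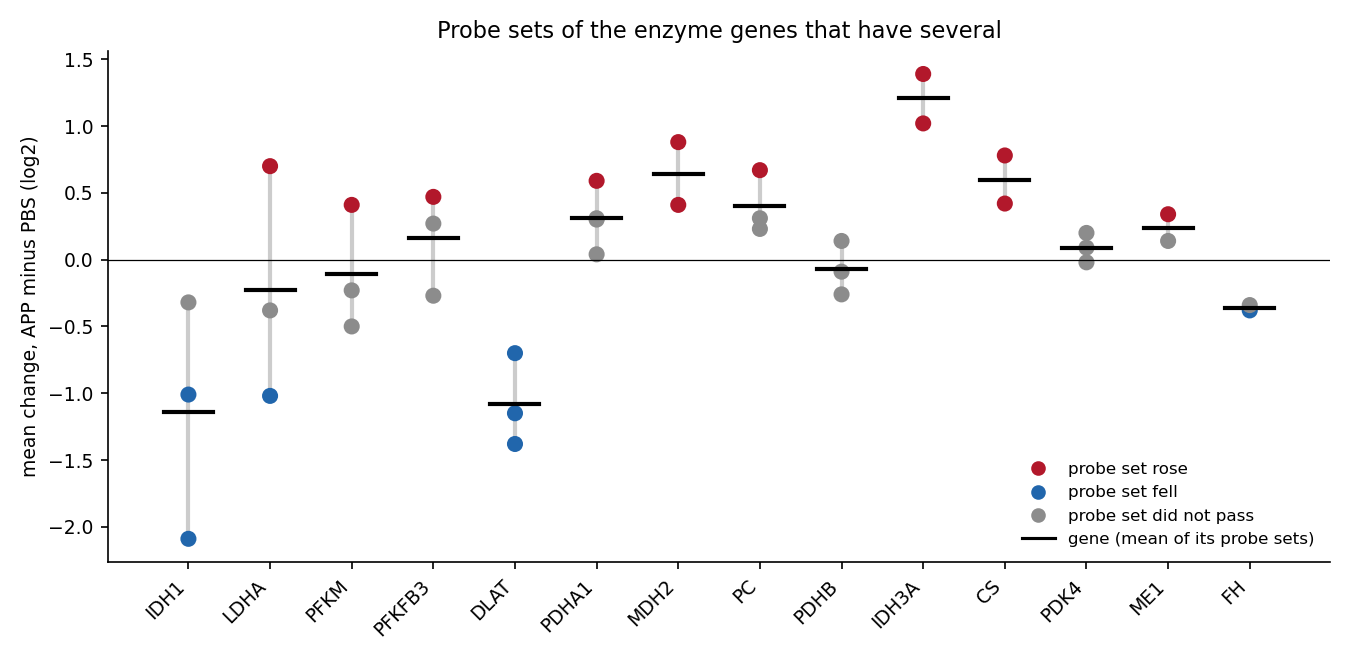
Mean change (log2, APP minus PBS) of every probe set of the 14 enzyme genes with several, ordered by the distance between their probe sets, with black bars for the gene mean. Red probe sets rose and blue ones fell (limma over 24016 probe sets, deposited scaling), and grey ones did not pass. IDH1 spans -2.09 to -0.32 and LDHA -1.02 to 0.70, whereas the 3 probe sets of DLAT are all blue. Scaled to the hybridization controls every point moves by about -0.85.

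Probe sets of a gene differed by more than 0.5 in 6 of the 14 genes with several, namely IDH1, LDHA, PFKM, PFKFB3, DLAT and PDHA1. Taken singly, the 63 probe sets gave 22 rises and 14 falls, and 27 did not pass, where 16.3% of all 24016 probe sets rose and 23.6% fell.

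Beside 23.0% of all genes that rose and 29.7% that fell, 1 pentose phosphate gene rose (25%) and 2 fell (50%). The remaining 1 of the 4 did not pass. The median change was -0.32, and -1.17 on the control scale. PGD, the phosphogluconate dehydrogenase that yields NADPH and ribulose phosphate, read -0.13 (calf 301) and -0.42 (calf 303) in PBS and 0.35 and 0.10 in APP. It rose 1.41-fold (0.50 ± 0.04, SD, n = 2, adjusted p = 0.00421, limma), and stood at -0.35 on the control scale. PGLS, the lactonase that precedes it, changed by -0.39 and -0.52, and TKT, the transketolase that links the pathway back to glycolysis, by -0.59 and -0.38. Its partner, the transaldolase TALDO1, changed by -0.21 and -0.15 and did not pass. Leaving out PBS 301, APP 301 or PBS 303 ended the calls of PGD (0.35 to 0.65) and TKT (-0.69 to -0.28), and leaving out any of the 4 arrays that of PGLS (-0.53 to -0.38). TKT did not pass without the calf term.

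**Figure D4:**
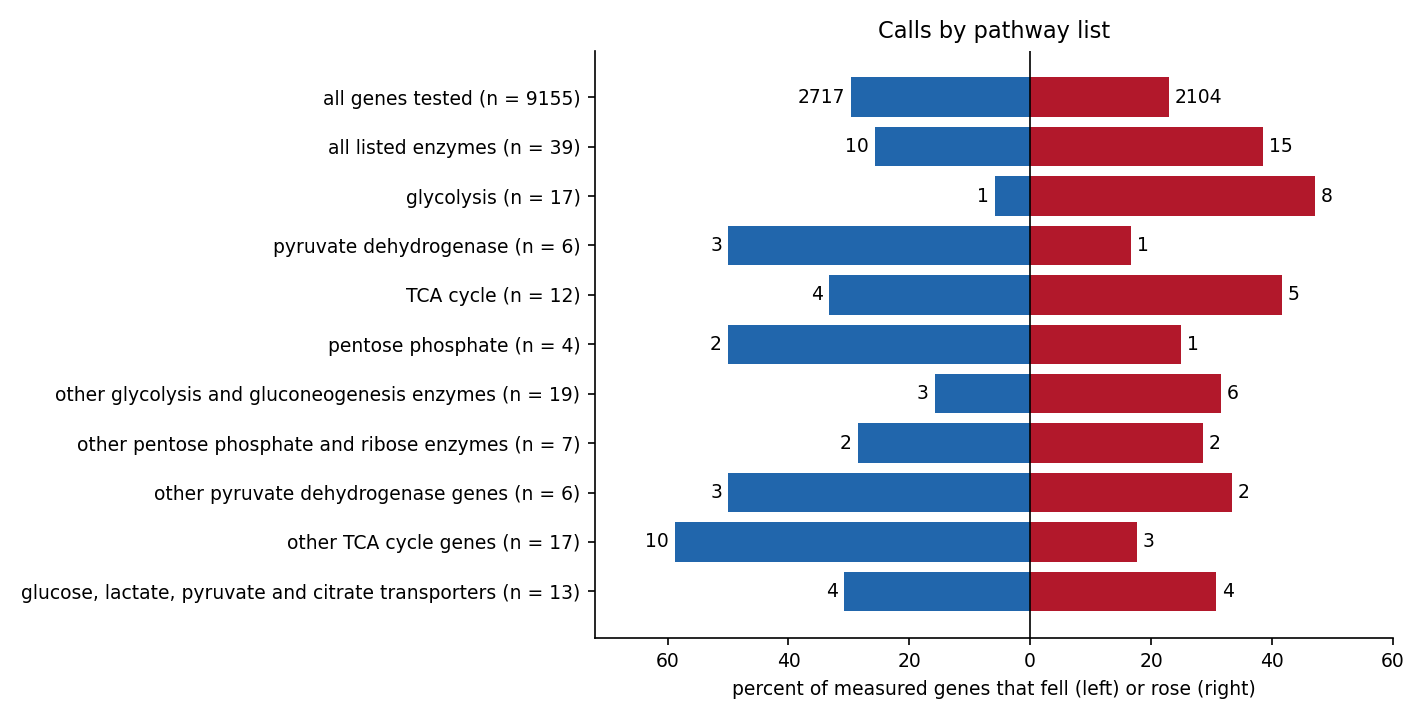
Percent of the measured genes of each list that rose (red, right) or fell (blue, left) in limma's test with the deposited scaling, with the number of genes at each bar. The listed enzymes, their 4 pathway groups and 5 lists of neighbouring genes stand below all genes tested, of which 23.0% rose and 29.7% fell. Glycolysis has 8 rises and 1 fall, the other TCA cycle genes 3 rises and 10 falls. Scaled to the hybridization controls 3.5% of all calls would be rises.

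Genes next to these enzymes were counted as well, beside 23.0% of all genes that rose and 29.7% that fell. Of 19 other enzymes of glycolysis and gluconeogenesis, 6 rose (31.6%), 3 fell (15.8%) and 10 did not pass. Their median change was 0.16, or -0.69 on the control scale. The largest rises were those of FBP1 (0.98 in calf 301 and 0.38 in calf 303), a gluconeogenic phosphatase, PFKFB4 (0.44 and 0.62), LDHD (0.58 and 0.38) and ADPGK (0.48 and 0.39), which stood between -0.42 and -0.17 on the control scale. The other rises, named after their values were seen, were those of the hexokinase genes HKDC1 (0.36 and 0.44) and HK3 (0.45 and 0.18), at -0.46 and -0.53 on the control scale. Both were lost in each of the 4 fits that left out an array (0.30 to 0.50 and 0.24 to 0.39). The call of HK3 (adjusted p = 0.0432, limma) was also lost without the calf term and with median scaling, quantile normalization, the median of probe sets or single probe sets. PCK1, the cytosolic phosphoenolpyruvate carboxykinase, fell (-0.48 and -1.02), as did G6PC3 (-0.58 and -0.18) and PFKFB2 (-0.36, with -0.92 to 0.20 over its probe sets). Without the calf term FBP1 and G6PC3 did not pass, and with quantile normalization PFKFB2 (-0.29) and G6PC3 (-0.32) did not, nor did G6PC3 when probe sets were fitted singly. Each of the 7 calls apart from the hexokinases was lost in at least 1 fit that left out an array. PFKFB4 was lost without PBS 303, PCK1 without PBS 303 or APP 303, PFKFB2 without any of the 4, and FBP1, LDHD, ADPGK and G6PC3 without PBS 301, APP 301 or PBS 303. Their changes in those fits ran from 0.34 (ADPGK) to 1.01 (FBP1) for the rises and from -0.98 (PCK1) to -0.21 (G6PC3) for the falls.

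Of 7 other pentose phosphate and ribose genes, 2 rose and 2 fell (28.6% each), and 3 did not pass. Their median change was 0.14, or -0.72 on the control scale. RPIA, the isomerase that makes ribose phosphate from the product of PGD, rose 3.22-fold. It read -0.87 (calf 301) and -1.17 (calf 303) in PBS and 0.81 and 0.53 in APP, changes of 1.68 and 1.69 (adjusted p = 2.74e-05, limma), and stayed at 0.84 on the control scale. RPE, the epimerase that uses the same substrate, changed by -0.47 and -0.30, with -1.21 to -0.06 over its 4 probe sets. The sedoheptulokinase gene SHPK changed by -0.27 and -0.53 and the ribokinase gene RBKS by 0.25 and 0.63 (-0.41 on the control scale). The call of RPIA held without each array. RPE was lost without PBS 301, APP 301 or PBS 303 (-0.47 to -0.30), SHPK without PBS 301, PBS 303 or APP 303 (-0.57 to -0.23), and RBKS without any of the 4 (0.31 to 0.57). RPE did not pass with the median of its probe sets either (-0.20), nor SHPK without the calf term.

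Around pyruvate dehydrogenase, 3 of 6 other genes fell (50%), 2 rose (33.3%) and 1 did not pass. Their median change was -0.74, or -1.59 on the control scale. PDHX, which anchors DLD to the DLAT core, read 0.38 (calf 301) and 0.60 (calf 303) in PBS and -1.01 and -0.54 in APP, a 2.40-fold fall (-1.26 ± 0.18, SD, n = 2). LIAS, which makes the lipoyl group that DLAT carries, changed by -1.01 and -0.71, and the kinase gene PDK3 by -0.72 and -0.90. These 3 calls held without each array. The phosphatase genes PDP1 (0.50 and 0.37) and PDPR (0.55 and 0.23), whose products act against the kinases' phosphorylation or regulate its removal, rose and stood at -0.42 and -0.46 on the control scale. Both were lost without PBS 301, APP 301 or PBS 303 (0.20 to 0.58), and PDPR also without the calf term.

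Other TCA cycle genes and enzymes that exchange with the cycle fell in 10 of 17 cases (58.8%) and rose in 3 (17.6%). Their median change was -0.31, or -1.16 on the control scale. ME2, the mitochondrial malic enzyme, fell 1.98-fold (-1.22 in calf 301 and -0.76 in calf 303), GLUD1, the glutamate dehydrogenase, 1.90-fold (-0.90 and -0.94), SDHD, a membrane anchor of succinate dehydrogenase, 1.62-fold (-0.70 and -0.68) and ACO1, the cytosolic aconitase, by a mean of 0.59 (-0.60 and -0.57). Among the other succinate dehydrogenase genes, named after their values were seen, SDHA (-0.31) and SDHB (-0.30) fell and SDHC (-0.27) did not pass. The calls of SDHA and SDHB were lost in each of the 4 fits that left out an array, without the calf term and with single probe sets, and that of SDHB also with quantile normalization. The genes that rose were GPD2, GOT1 and GOT2. GPD2, the mitochondrial glycerol phosphate dehydrogenase, read -1.19 (calf 301) and -0.85 (calf 303) in PBS and 0.51 and 1.24 in APP. It rose 3.72-fold (1.89 ± 0.28, SD, n = 2, adjusted p = 4.36e-05, limma) and stayed at 1.04 on the control scale. GPD1, the cytosolic enzyme that pairs with GPD2, changed by -0.16 and -0.03 and did not pass (named after its value was seen). The aspartate aminotransferase genes GOT1 (0.75 and 0.85) and GOT2 (0.43 and 0.61) stood at -0.05 and -0.33 on that scale. Leaving out an array ended the call of ACO1 without PBS 303 (-0.61 to -0.56) and of GOT2 without PBS 301, PBS 303 or APP 303 (0.43 to 0.62), and none of those of GPD2, GOT1, ME2, GLUD1 and SDHD.

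Of 13 transporters of glucose, lactate, pyruvate and citrate, 4 rose and 4 fell (30.8% each). Of all genes 23.0% rose and 29.7% fell. The transporters' median change was 0.24, or -0.61 on the control scale. SLC16A1, the lactate and pyruvate transporter MCT1, rose 6.27-fold. It read -2.01 (calf 301) and -1.73 (calf 303) in PBS and 0.74 and 0.82 in APP (2.65 ± 0.14, SD, n = 2, adjusted p = 1.08e-05, limma), and it stood at 1.80 on the control scale. SLC2A1, the glucose transporter GLUT1, rose 2.02-fold from -0.58 and -0.67 in PBS to 0.39 and 0.40 in APP (0.16 on the control scale, where it did not pass). The treatments overlapped for neither. SLC2A3, the transporter GLUT3, read 0.06 and -0.61 in PBS and 1.23 and -0.08 in APP, so that its treatments did overlap. It rose by 1.17 (calf 301) and 0.53 (calf 303), with a mean of -0.003 on the control scale, and differed between the calves (-0.99, calf 303 minus 301, adjusted p = 0.0335, limma). The lactate exporter gene SLC16A3 changed by 0.39 and 0.22 (-0.55 on the control scale), and neither it nor SLC2A3 passed without the calf term.

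The 4 transporter genes that fell encode mitochondrial carriers. SLC25A12, the aspartate and glutamate carrier, changed by -1.17 in calf 301 and -0.99 in calf 303 (2.11-fold), MPC1, a subunit of the mitochondrial pyruvate carrier, by -0.72 and -0.56 (1.56-fold), the citrate carrier SLC25A1 by -0.51 and -0.52 and the oxoglutarate carrier SLC25A11 by -0.31 and -0.47, with -0.90 and 0.12 for its probe sets. MPC2, the partner of MPC1, changed by 0.22 and 0.07 and did not pass (named after its value was seen). The calls of SLC16A1, SLC2A1 and SLC25A12 held without each array. MPC1 was lost without PBS 301 or APP 303 (-0.82 to -0.46), SLC25A1 without either PBS array (-0.54 to -0.49), SLC25A11 without PBS 301, PBS 303 or APP 303 (-0.56 to -0.22), SLC2A3 without PBS 301, APP 301 or PBS 303 (0.19 to 1.50) and SLC16A3 without any of the 4 (0.11 to 0.49). SLC25A11 did not pass without the calf term.

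**Figure D5:**
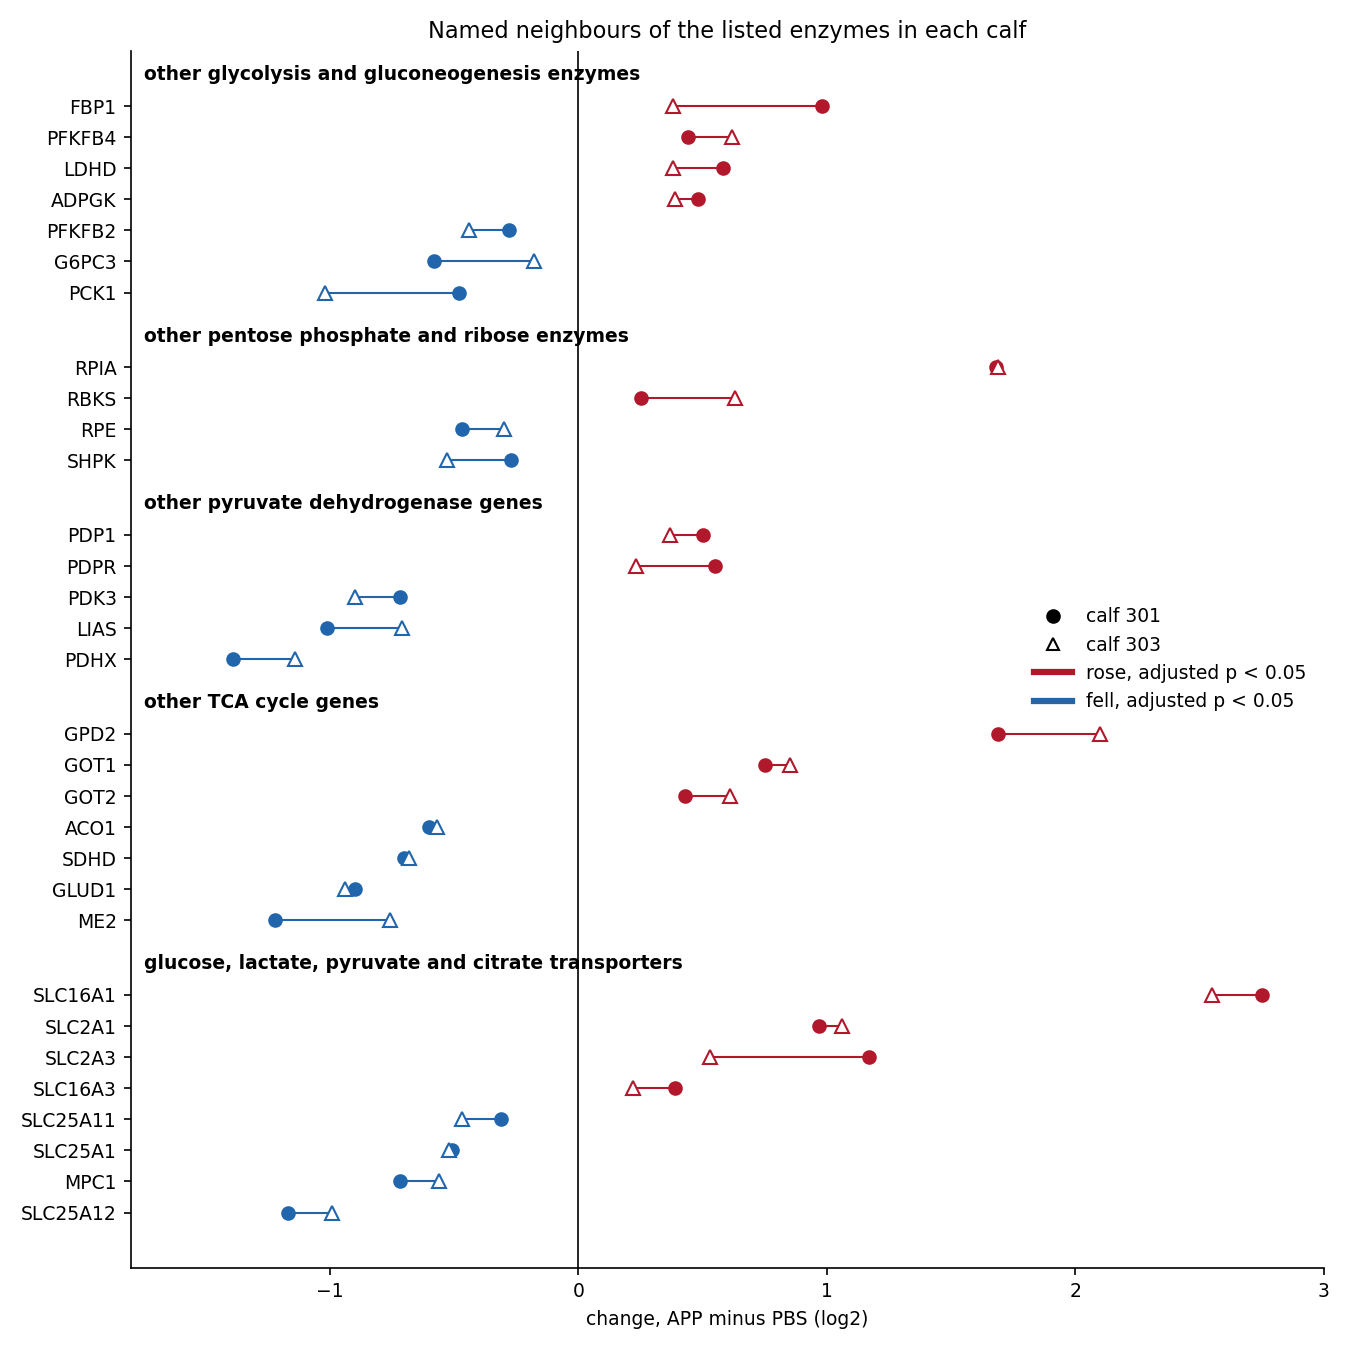
Change (log2, APP minus PBS) in calf 301 (filled circles) and calf 303 (open triangles) of up to 4 genes per direction from each list of neighbouring genes, chosen as the largest mean changes that passed limma's test with the deposited scaling. SLC16A1 lies farthest right at 2.75 and 2.55, and PDHX farthest left at -1.39 and -1.14. Scaled to the hybridization controls the points move by about -0.85, and of the rises only SLC16A1, GPD2, RPIA and SLC2A1 would keep a positive mean.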

How the data were processed

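Per the submitters' processing notes the arrays were summarised with RMA, with no version or options named. The deposited values are linear ratios of each probe set to its own median over the 4 arrays: the mean of the middle 2 values lay between 0.982 and 1.001 for all 24128 probe sets. The ratios were log2 transformed, 112 control probe sets were left out, and 24016 probe sets were tested. Of these 13292 had 1 gene symbol, 86 several and 10638 none, and symbols were updated by Entrez identifier through a RefSeq table (ARS-UCD2.0) for 13263. Probe sets of a gene were averaged into 9155 genes. The 2 arrays per treatment limit the precision.

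limma 3.58.1 in R 4.3.3 (lmFit, eBayes, two-sided) was fitted to all genes with the calf as a block, since per the labels' titles each animal gave cells to both treatments, with Benjamini-Hochberg adjustment at 0.05. The fit has 1 residual degree of freedom and 5.86 prior ones. The calves' difference in PBS correlated with that in APP across genes (r = 0.509), a check of the pairing. The p-values reflect the spread over the 2 calves only in part. limma draws each gene's variance towards a value pooled over all genes, which here had most of the weight. The code was tested on simulated data. An exact permutation test of 2 arrays against 2 cannot go below p = 0.33 and was not made. The enzyme list and the neighbouring and marker lists were chosen with earlier results of these data known. Enzyme genes that passed with a mean change of at least 0.5 are given array by array, others by their changes, and 4 genes per direction of each neighbouring list by size. Planned promoter motifs were not analysed here, as no sequence was used. No tests of lists were made. Alternatives were other scalings, no block, each array left out, the median of probe sets, single probe sets, older symbols and robust eBayes.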

Additional observations from a re-analysis of the deposited data

How the results depend on the processing

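Every call rests on 2 arrays per treatment, and signal over background cannot be judged from ratios, so alternatives in background correction and a filter on dim probes were not run. Median scaling, quantile normalization, robust eBayes and the older symbols moved no count of calls by over 1.5 times, nor did the median of probe sets except in pyruvate dehydrogenase (0 rises) and glycolysis (2 falls). Without the replicate block 1399 genes rose, and 0 pyruvate dehydrogenase genes rose, 0 glycolytic genes fell and 1 pentose phosphate gene fell, and 12 of the 15 enzyme rises and 7 of the 10 falls kept their call. No enzyme gene differed between the calves in limma's test in any fit with 1 array left out or with the calf alone.

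Leaving out 1 array (without the block, the lone array of a treatment being taken to vary like the others) gave 745 to 1292 rises and 1305 to 2012 falls over all genes. Rises numbered 7 to 11 among the enzymes, 5 to 7 in glycolysis, 1 to 4 in the TCA cycle and 0 in pyruvate dehydrogenase, and 0 to 1 in the pentose phosphate pathway. Falls numbered 3 to 7 among the enzymes, 0 to 1 in glycolysis, 2 to 4 in the TCA cycle, 1 to 2 in pyruvate dehydrogenase and 0 to 1 in the pentose phosphate pathway.

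Scaled to the hybridization controls, 298 genes rose and 8224 fell. Rises numbered 3 among the enzymes, 2 in glycolysis, 0 in pyruvate dehydrogenase, 1 in the TCA cycle and 0 in the pentose phosphate pathway, and falls 29, 11, 6, 8 and 4. The mean changes that reversed were, for called genes, PFKL -0.06, PGK1 -0.16, TPI1 -0.18, MDH2 -0.21, OGDH -0.23, CS -0.25, PGD -0.35, ENO1 -0.39, PC -0.45, ALDOA -0.46, PDHA1 -0.54, SLC2A3 -0.003, GOT1 -0.05, FBP1 -0.17, PFKFB4 -0.32, GOT2 -0.33, LDHD -0.37, RBKS -0.41, ADPGK -0.42, PDP1 -0.42, HKDC1 -0.46, PDPR -0.46, HK3 -0.53 and SLC16A3 -0.55. Of the called enzyme genes among these, PGD, ENO1, PC, ALDOA and PDHA1 passed as falls on that scale. All enzyme genes that had not passed became falls. Reversed among them were ENO2 -0.60, ME1 -0.61, HK1 -0.64, PFKFB3 -0.70, GAPDH -0.72 and PDK4 -0.76. Already negative before were PDHB -0.92, IDH3G -0.93, PFKM -0.96, LDHB -0.97, SUCLG1 -1.01, GPI -1.03, TALDO1 -1.03 and LDHA -1.08. This scaling subtracts about the same amount from every gene by construction, and whether it or the deposited scaling is nearer to the cells was not tested. The protocols give 15 µg of total RNA for each sample, so RNA per cell could not be read from either scaling.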
